A study of Mus musculus with 30 samples.

Results

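Cathepsins are the proteases of the endosome and lysosome. The rows examined are the 10 cathepsin genes Ctsa, Ctsb, Ctsc, Ctsd, Ctse, Ctsh, Ctsk, Ctsl, Ctss and Ctsz, picked by gene symbol from the 13788 genes in the deposited table. All 10 were present and all 10 passed the filter on low values, which kept 13722 genes. RNA was sequenced from 30 samples of mouse microglia, the macrophages that live in the brain, which had been grown from mouse brains for several days and then shaken off. The 10 groups of 3 libraries are cultures labelled PD-1 KO and cultures labelled WT, each at 0 h, at 2 h with and without amyloid-beta, and at 8 h with and without amyloid-beta. Amyloid-beta, the peptide of Alzheimer plaques, was given in conditioned medium, and the labels do not name the medium of the untreated cultures, the strain, the age of the mice or the knockout allele. They also do not say whether the 3 libraries of a group came from separate animals, so p-values measure only the spread between these libraries.

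The gene named in the knockout went against its label. Pdcd1, which encodes the inhibitory receptor PD-1, had values between 6.02 and 25.3 in all 15 libraries labelled PD-1 KO, against the floor value of 1 in each of the 15 labelled WT, so the groups are named here by label. Read numbers are not given by the labels and were recovered here from the steps between the values of each library. Summed over the 13788 genes of the deposited table, without reads hidden by the floor, they ran from 4227019 to 48509985 per library. Their medians were 9763779 in libraries labelled PD-1 KO and 9442385 in libraries labelled WT. The 14 fixed markers of microglia and macrophages were all present, and their summed signal was 91156 to 158005 in libraries labelled PD-1 KO, against 126459 to 202616 in libraries labelled WT. Markers of astrocytes and ependymal cells were present as well and were higher under the PD-1 KO label. The 10 astrocyte markers summed to 11515 to 28826 in libraries labelled PD-1 KO, against 1298 to 3923 in libraries labelled WT. The 8 markers of ependymal cells, the ciliated lining of the ventricles, summed to 1563 to 6909 in libraries labelled PD-1 KO, against 105 to 528 in libraries labelled WT. The signal is a gene count divided by the library's size factor and floored at 1. The titles number the 8 h libraries in a separate run from the others, so time and that run cannot be told apart.

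Cathepsins are made as inactive precursors, carried to the endosome and lysosome mainly by mannose 6-phosphate receptors, and activated there by cleavage in acid. Most are cysteine proteases of the papain family, namely cathepsins B, C, H, K, L, S and Z. Cathepsins D and E are aspartic proteases, and cathepsin A is a serine carboxypeptidase. In microglia they break down engulfed proteins, amyloid included, and prepare peptides for presentation. Cathepsin E differs from the lysosomal enzymes in its place: it is known chiefly from endosomes and the secretory pathway of stomach lining and immune cells.

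Many lysosomal genes carry an E-box, CACGTG, near their start, the core of the site read by the transcription factor TFEB. The windows below show it in the upstream regions of the cathepsins that have it, 5′ to 3′ on the gene's strand, with the motif in capitals. Of the 10 genes, 7 had an entry among RefSeq promoters of build GRCm38.p6, which run from 250 bases before to 50 bases after a start. These 7 genes had 8 starts in all. The motif stood in 3 of these 7 genes, or 3 of their 8 starts, and in 6.02% of 32851 starts of all genes. It reads the same on both strands.

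Ctsa: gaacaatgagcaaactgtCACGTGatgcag

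Ctsd, distal: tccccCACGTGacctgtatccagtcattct

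Ctsd, proximal: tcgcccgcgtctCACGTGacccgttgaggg

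Ctsl: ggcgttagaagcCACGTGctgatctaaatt

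The Ctsa window is chr2:164833743-164833772 on the plus strand, with the motif's first base 12 bases before the start and inside an annotated Ctsa exon. This start is the downstream one listed for Ctsa. The region before the upstream Ctsa start, chr2:164832622-164832871, did not hold the motif. The Ctsd windows are chr7:142388048-142388077, between genes, and chr7:142387908-142387937, in an annotated Ctsd exon, both on the minus strand. Their motifs begin 245 and 98 bases before the start. The Ctsl window is chr13:64370739-64370768 on the minus strand, in an annotated Ctsl exon, with the motif beginning 236 bases before the start. The longer palindrome in which the E-box is preceded by GT and followed by AC was in 0 of the 7 genes and in 0.240% of all starts. Ctsb, Ctse and Ctsh had no entry. Ctsa and Ctsd, 2 of the genes with the motif, were lower under the PD-1 KO label and Ctsl was higher, as described next; a match in these letters is a description and not a binding site.

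Libraries labelled PD-1 KO were first compared with libraries labelled WT over all conditions. Ctse was far higher, Ctsk and Ctsl were higher, and the other 7 cathepsins, among them the abundant Ctsd, Ctsb and Ctss, were lower. The values of the members as deposited are plotted below by condition.

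**Figure D1:**
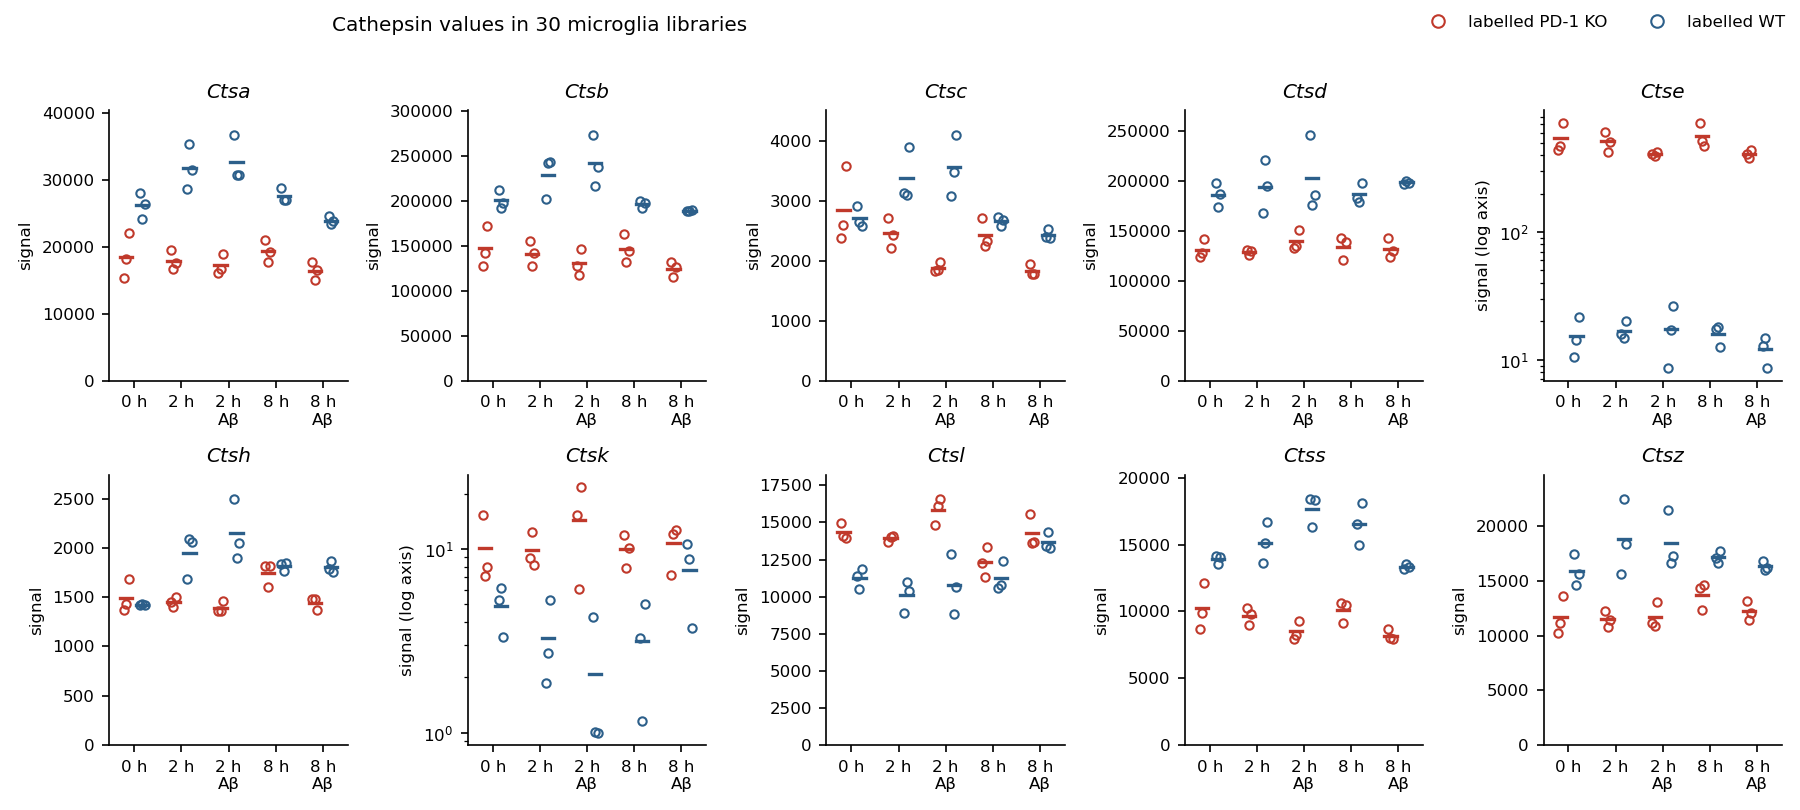
Signal of the 10 cathepsins in 30 libraries, with condition on the x axis and signal on the y axis (log axes for Ctse and Ctsk); each circle is a library and each bar a group mean (n = 3), libraries labelled PD-1 KO left of those labelled WT. Ctse lies between 380 and 719 in all 15 libraries labelled PD-1 KO and between 8.55 and 26.4 in all 15 labelled WT. Ctsa, Ctsb, Ctsd, Ctss and Ctsz lie lower under the PD-1 KO label with no overlap. The share of all genes without overlap is not given here. Non-overlap, here and in the groups of 3 below, is therefore not read as particular to the cathepsins.

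Ctse, on chromosome 1 (mm10 131638306 to 131675505, plus strand), had the largest difference among the cathepsins. At 0 h its signal was 441, 469 and 719 in libraries labelled PD-1 KO, against 10.5, 14.4 and 21.5 in libraries labelled WT. At 2 h it was 609, 423 and 508 in libraries labelled PD-1 KO, against 15.8, 14.9 and 20.01 in libraries labelled WT. At 8 h it was 714, 519 and 474 in libraries labelled PD-1 KO, against 17.5, 18.1 and 12.5 in libraries labelled WT. Every library labelled PD-1 KO was thus above every library labelled WT at each of these times. With amyloid-beta for 2 h it was 411, 391.5 and 423 in libraries labelled PD-1 KO, against 8.55, 17.2 and 26.4 in libraries labelled WT. With amyloid-beta for 8 h it was 407, 380 and 440 in libraries labelled PD-1 KO, against 12.7, 14.7 and 8.66 in libraries labelled WT. The groups did not overlap there either. The mean over all conditions was 489 ± 109 under the PD-1 KO label and 15.6 ± 4.84 under the WT label (SD, n = 15 each), which rest on 195 to 1757 and on 5 to 66 reads per library. The fitted log2 difference was 4.91 ± 0.13 (SE), or 30.2-fold, with an adjusted p of 4.4e-22 (limma), the 19th largest of 13722 genes by size.

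The lysosomal cathepsins of highest signal moved the other way. Ctsd, the main aspartic protease of the lysosome, ranged from 120331 through a median of 131170 to 151140 in libraries labelled PD-1 KO, against 167248, 194531 and 245902 in libraries labelled WT. Ctsb, a cysteine protease that also trims dipeptides from protein ends, ranged from 115541 through 131972 to 172378 in libraries labelled PD-1 KO, against 188436, 199861 and 273585 in libraries labelled WT. Both genes were lower in every library labelled PD-1 KO than in any labelled WT, by log2 differences of -0.54 ± 0.07 for Ctsd and -0.62 ± 0.07 for Ctsb. Their adjusted p-values were 1.8e-07 and 2.3e-08. Each was among the 4 genes of highest signal in every library.

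Ctss and Ctsa showed the largest decreases of the 10 genes. Ctss, the microglial cysteine protease that trims the invariant chain of class II molecules and stays active outside the lysosome, ranged from 7906 through 9118 to 12114 in libraries labelled PD-1 KO, against 13206, 14990 and 18406 in libraries labelled WT. Ctsa, which also shields β-galactosidase and neuraminidase in the lysosome, ranged from 14968 through 17669 to 21990 in libraries labelled PD-1 KO, against 23317, 28001 and 36680 in libraries labelled WT. Neither pair of ranges overlapped. The log2 differences were -0.72 ± 0.05 for Ctss and -0.67 ± 0.05 for Ctsa (adjusted p 2.1e-13 and 1.2e-11).

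Ctsz, Ctsc and Ctsh completed the group that fell. Ctsz, a carboxypeptidase also called cathepsin X, averaged 12188 ± 1337 in libraries labelled PD-1 KO and 17368 ± 2114 in libraries labelled WT (SD, n = 15 each), with no overlap and a log2 difference of -0.51 ± 0.06. Ctsc, the dipeptidyl peptidase that activates granule serine proteases, averaged 2286 ± 487 in libraries labelled PD-1 KO and 2946 ± 526 in libraries labelled WT, with overlapping ranges and a difference of -0.37 ± 0.05. Ctsh, an aminopeptidase, averaged 1505 ± 155 in libraries labelled PD-1 KO and 1828 ± 286 in libraries labelled WT, also with overlap, and differed by -0.27 ± 0.04. The adjusted p-values were 5.4e-09, 7.2e-07 and 2.0e-06.

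Ctsl and Ctsk were higher under the PD-1 KO label by much less than Ctse. Ctsl, an endopeptidase of broad specificity, ranged from 11320 through 14030 to 16566 in libraries labelled PD-1 KO, against 8809, 11020 and 14379 in libraries labelled WT, and differed by 0.32 ± 0.05 on the log2 scale (adjusted p 2.4e-06). Ctsk, the collagen-cleaving protease of osteoclasts, ranged from 6.02 through 10.1 to 21.7 in libraries labelled PD-1 KO, against 1, 3.71 and 10.6 in libraries labelled WT. Its fitted difference was 1.32 ± 0.23 (adjusted p 1.2e-05), on 3 to 56 reads per library labelled PD-1 KO and 0 to 12 reads per library labelled WT, of which 1 lay at the floor. The ranges overlapped for both genes, and the fold of Ctsk depends on the pseudocount, with 0.56 at a pseudocount of 10. With quantile normalization Ctsk stood at 0.23 and did not pass (adjusted p 0.37).

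All 10 cathepsins passed the threshold over all conditions, 3 higher and 7 lower, where 59.5% of all tested genes passed, 30.3% higher and 29.1% lower. The median difference was -0.44 for the 10 genes and -0.02 for all genes. Together the 10 genes held 3.09% to 3.72% of all signal in libraries labelled PD-1 KO (median 3.36%), against 4.23% to 5.35% in libraries labelled WT (median 4.47%). The 14 microglia and macrophage markers had a median difference of -0.37, with 10 lower and 1 higher, and in bulk samples fewer cells of a type and less RNA per cell cannot be told apart. With each library scaled to those markers, a setting that moves the median of all genes to 0.27, Ctss stood at -0.42, Ctsa at -0.37, Ctsb at -0.33 and Ctsd at -0.25, all still past the threshold, Ctsc at -0.08 was not, and Ctsh reversed to 0.02. Under the same scaling Ctse stood at 5.21, Ctsk at 1.61 and Ctsl at 0.61. With quantile normalization Ctsd stood at -0.09, Ctsb at -0.15 and Ctse at 4.54; that method ties the top ranks of each library to common values, and Ctsd and Ctsb hold such ranks.

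**Figure D2:**
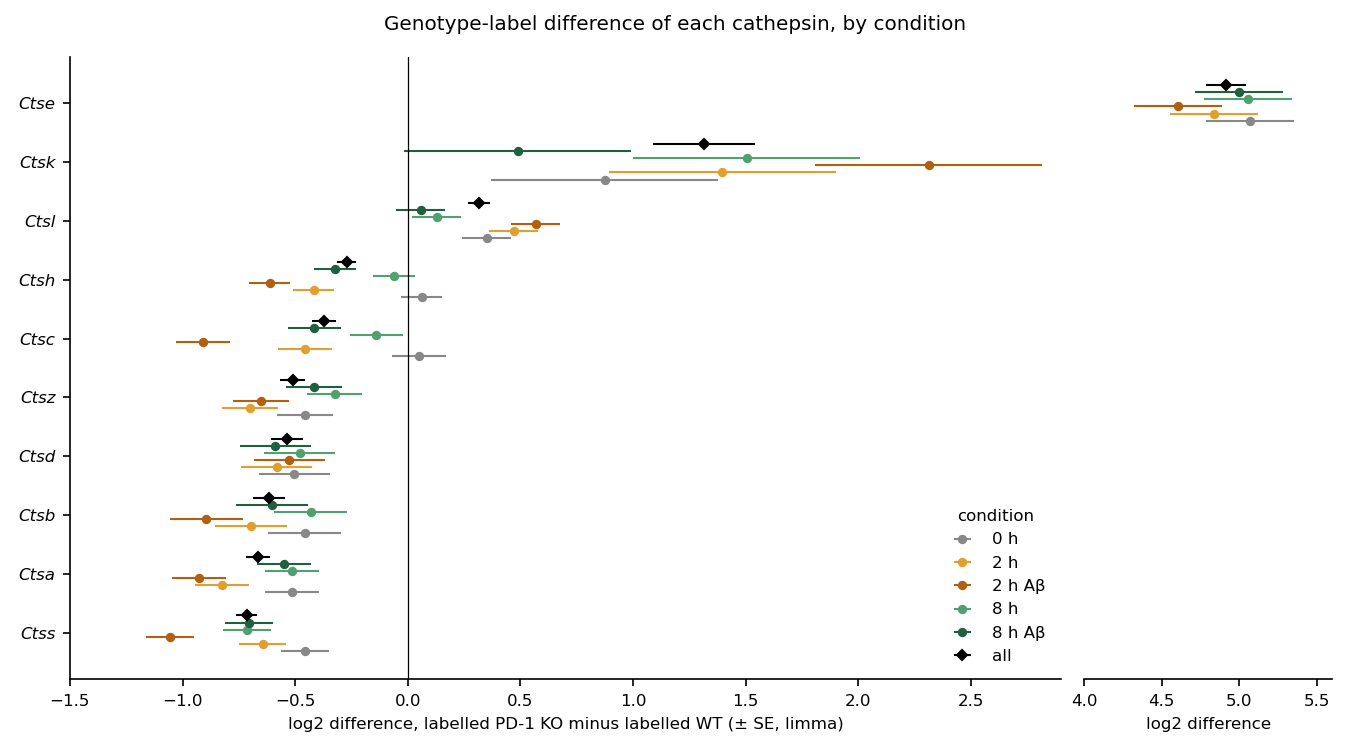
Log2 difference between libraries labelled PD-1 KO and labelled WT (x axis, ± SE, limma; the axis is broken before Ctse) for each cathepsin (y axis), in 5 conditions (n = 3 each) and over all of them (black, n = 15 each). Ctse stays between 4.60 and 5.07 in every condition, while Ctsh and Ctsc sit near 0 at 0 h; scaled to microglia markers, Ctsh over all conditions, Ctsc and Ctsh at 2 h and Ctsd, Ctsh and Ctsz at 2 h with amyloid-beta change sign.

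The same comparison within each condition showed which members held at a single time. With the values as deposited Ctse, Ctsa, Ctsb, Ctsd and Ctss passed the threshold in all 5 conditions. With quantile normalization Ctsd passed in 0 of the 5, Ctsb in 1, at 2 h with amyloid-beta, and Ctsa in 3, not at 8 h without or with amyloid-beta. The Ctsb call at 8 h, at an adjusted p of 0.048, was lost with a pseudocount of 10, with TMM factors and in 23 of 30 fits without 1 library, and that at 0 h in 14 of 30. At 0 h 2 members were higher and 5 lower, against 13.8% of all genes higher, 6.88% lower and 20.7% in either direction, and Ctsc, Ctsh and Ctsk did not pass. At 2 h without and with amyloid-beta all 10 passed, 3 higher and 7 lower each time. Of all genes 32.2% passed at 2 h, 18.8% higher and 13.4% lower, and 38.9% with amyloid-beta, 22.2% higher and 16.7% lower. At 8 h without amyloid-beta 2 were higher and 4 lower, against 18% and 9.01% of all genes and 27% in either direction, and Ctsc, Ctsh, Ctsl and Ctsz did not pass. At 8 h with amyloid-beta 1 was higher and 7 lower, against 22% and 11.7% of all genes and 33.7% in either direction, and Ctsk and Ctsl did not pass.

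The Ctse difference was 5.07 ± 0.28 at 0 h, 4.84 ± 0.28 at 2 h, 4.60 ± 0.28 at 2 h with amyloid-beta, 5.06 ± 0.28 at 8 h and 5.00 ± 0.28 at 8 h with amyloid-beta. Ctss was lower by amounts that ran from -0.46 ± 0.11 at 0 h to -1.06 ± 0.11 at 2 h with amyloid-beta; scaled to the microglia markers that order turned round, with -0.61 at 0 h and -0.30 at 2 h with amyloid-beta, and -0.17 at 2 h did not pass. With amyloid-beta for 2 h Ctss was 7962, 8276 and 9297 in libraries labelled PD-1 KO, against 18406, 16329 and 18319 in libraries labelled WT, and the groups lay far apart. Ctsc at 0 h was 2375, 2593 and 3575 in libraries labelled PD-1 KO, against 2908, 2639 and 2583 in libraries labelled WT, and those groups overlapped. At 2 h with amyloid-beta Ctsc was 1823, 1845 and 1969 in libraries labelled PD-1 KO, against 3076, 3484 and 4094 in libraries labelled WT, a difference of -0.91 ± 0.12, which scaled to the microglia markers came to -0.15 and did not pass (adjusted p 0.16). The 14 microglia and macrophage markers had a median difference of -0.01 at 0 h and of -0.83 at 2 h with amyloid-beta, where 12 were lower.

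Calls at 0 h and at 8 h depended on single settings or libraries. The 7 calls at 0 h came to 2 when only the groups compared were fitted, to 3 without replicate 1 of the PD-1 KO group at 0 h and to 4 without replicate 1 of the WT group at 0 h, and the 6 calls at 8 h came to 3 with quantile normalization. Scaled to the microglia markers, the 2 h difference of Ctsc came to 0.01 and that of Ctsh to 0.05, and with amyloid-beta Ctsd came to 0.23, Ctsh to 0.15 and Ctsz to 0.11, while Ctsb at -0.14 did not pass; in that condition the scaling moved the median of all genes to 0.78.

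Ctse was then set against Ctsd, the other aspartic protease, within each library, which removes the library's scaling. The log2 ratio of Ctse to Ctsd was -8.11 ± 0.29 in libraries labelled PD-1 KO and -13.56 ± 0.52 in libraries labelled WT (SD, n = 15 each), so Ctse was closer to Ctsd under the PD-1 KO label. The ranges ran from -8.48 to -7.62 in libraries labelled PD-1 KO and from -14.65 to -12.72 in libraries labelled WT. The difference of 5.45 had a two-sided permutation p of 2e-05, the smallest that 100000 resamples can give. It combines the Ctse and Ctsd differences given above, each without overlap between the labels. The outcome was thus fixed in advance, and the p-value is no further support. The permutation also did not keep the conditions apart. Within conditions it was 5.57 at 0 h, 5.42 at 2 h, 5.13 at 2 h with amyloid-beta, 5.54 at 8 h and 5.59 at 8 h with amyloid-beta, each with an exact permutation p of 0.1, the smallest that 3 against 3 allows.

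Levels per kilobase of merged exons placed the members in one order under both labels. Ctsd was highest, with a mean of 56616 per kb in libraries labelled PD-1 KO and 82276 in libraries labelled WT. Ctsb followed with 22808 and 34966 under the same labels, and then came Ctsz (8458 and 12053), Ctss (6880 and 11292), Ctsa (3787 and 6026) and Ctsl (2179 and 1759). The lowest members were Ctsc (394 and 507), Ctsh (334 and 406), Ctse (154 and 4.91) and Ctsk (7.26 and 2.80). The ranges of neighbours overlapped between Ctsz and Ctss and between Ctsc and Ctsh under both labels. Ctse and Ctsk, the pair at the bottom, did not overlap in libraries labelled PD-1 KO but did in libraries labelled WT, where Ctse was above Ctsk in 11 of 15. Lengths of the longest transcript gave the same order under both labels.

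The genes most like Ctse in their pattern over the groups were no cathepsins. Over the 10 group means, each gene centred on its own mean, Ctse was compared with 10719 tested genes whose mean value was at least 50. The closest was Pifo, at a root mean square difference of 0.41 on the log2 scale. Pvalb followed at 0.43, Cfap52 at 0.44, Clec3b at 0.46 and Calml4 at 0.47. Pvalb averaged 225 in libraries labelled PD-1 KO and 6.99 in libraries labelled WT, and Cfap52 averaged 212 and 7.82 under the same labels. Pifo averaged 106 and 3.90, Clec3b 105 and 2.03 and Calml4 102 and 3.68. All of them thus reached the limit of 50 only through the PD-1 KO label. Under the WT label Clec3b lay at the floor in 7 of 15 libraries and Pifo in 3, so this likeness is mainly the label difference itself. The distance from Ctse to the other 9 cathepsins ran from 1.88 for Ctsk to 2.82 for Ctss. Ctsa and Ctsb, by contrast, lay 0.05 apart, and Grn, which encodes the lysosomal protein progranulin, was among the 2 genes closest to each of Ctsa, Ctsb and Ctss. Ctsd was closest to Fuca2, which encodes a fucosidase, at 0.05.

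**Figure D3:**
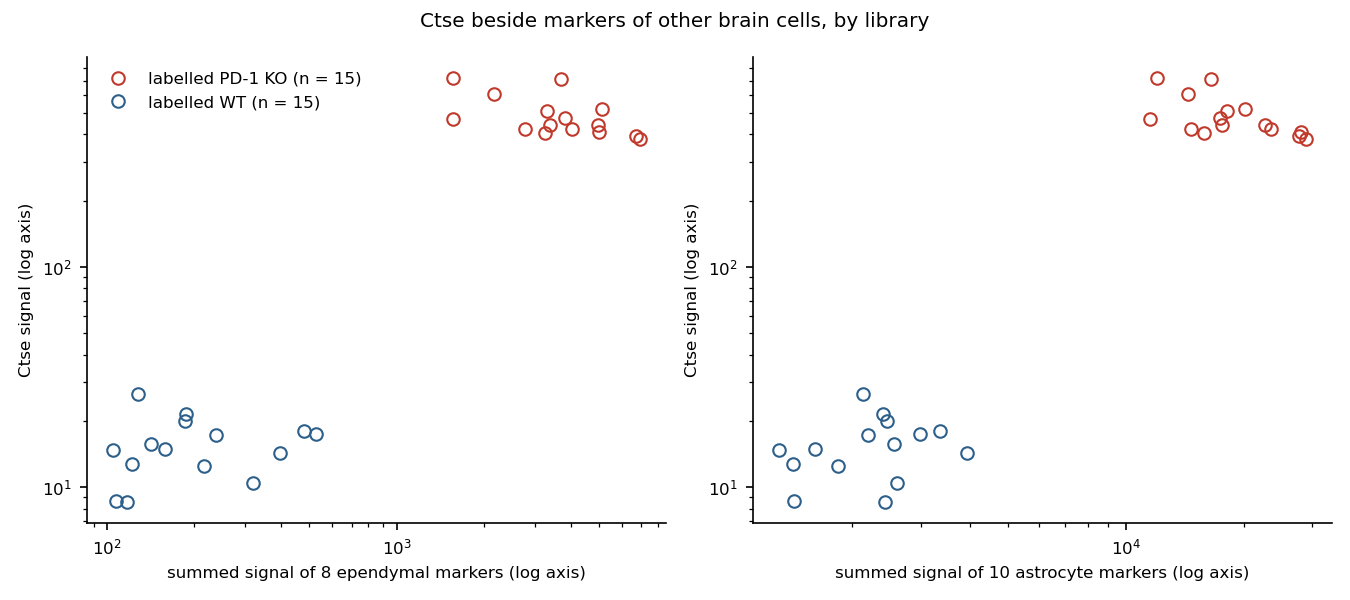
Ctse signal (y axis, log) against the summed signal of 8 ependymal markers (left, x axis, log) and 10 astrocyte markers (right, x axis, log), one circle per library (n = 15 under each label). Both marker sums and Ctse are higher in all libraries labelled PD-1 KO. Among these, the library with the highest sums, at 6909 and 28826, has the lowest Ctse, at 380. It also has the lowest microglia and macrophage sum of that label, 91156.

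Ctse is plotted beside the markers of astrocytes and ependymal cells because all of those markers were higher under the PD-1 KO label. All 8 ependymal markers were higher, with a median log2 difference of 4.80, and all 10 astrocyte markers, with a median of 2.68. Among libraries labelled PD-1 KO the ependymal sum varied 4.42-fold, the astrocyte sum 2.50-fold and Ctse 1.89-fold. Replicate 2 of the PD-1 KO group at 8 h with amyloid-beta had the highest sum on both lists, 6909 and 28826, and the lowest Ctse of that label, 380. Replicate 2 of the PD-1 KO group at 0 h had the lowest sum on both lists, 1563 and 11515, with a Ctse of 469. Replicate 3 of that group had similar sums, 1572 and 12038, and the highest Ctse of that label, 719. The microglia and macrophage sum of that label was highest in this same library, 158005, and lowest, 91156, in the library of lowest Ctse. Ctse divided by that sum ran from 0.00366 to 0.00489 under the PD-1 KO label and from 4.22e-05 to 0.000165 under the WT label. Of the 20 markers of lymphocytes, mast cells, dendritic cells, granulocytes and red cells, 6 were in the table and 3 were tested, of which 0 were higher and 1 was lower. The part of these cells in the Ctse difference was not tested.

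**Figure D4:**
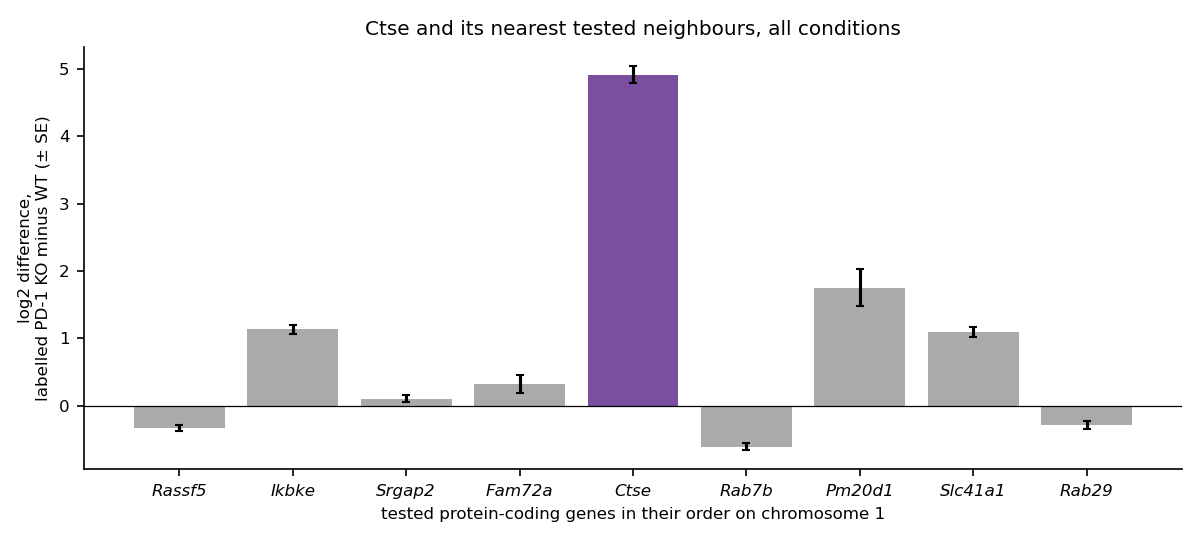
Log2 difference between libraries labelled PD-1 KO and labelled WT over all conditions (y axis, ± SE, limma, n = 15 each) for Ctse and its 4 nearest tested protein-coding genes on each side, in chromosome order (x axis). Ctse stands at 4.91 and its neighbours between -0.61 and 1.75.

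The genes beside Ctse on chromosome 1 had smaller differences. On the proximal side Fam72a stood at 0.32 ± 0.13, Srgap2 at 0.11 ± 0.05, Ikbke, a kinase of interferon induction, at 1.14 ± 0.07, and Rassf5 at -0.33 ± 0.05. On the distal side Rab7b, a small GTPase of late endosomes, stood at -0.61 ± 0.05, Pm20d1 at 1.75 ± 0.27, Slc41a1 at 1.09 ± 0.07 and Rab29 at -0.28 ± 0.06. All of these but Srgap2 passed the threshold. Pm20d1 was near the floor, with means of 7.79 in libraries labelled PD-1 KO and 1.42 in libraries labelled WT.

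Ctsk and Ctss lie next to each other on chromosome 3, both on the plus strand, with 17423 bases between them, and they moved in opposite directions, Ctsk at 1.32 and Ctss at -0.72. The genes on either side, Arnt and Golph3l, stood at -0.17 and 0.01. Because the pair differs in both level and direction, the 250 bases before each start are shown for comparison, 5′ to 3′, with a match to the interferon response motif, GAAA, any 2 bases and GAAA again, in capitals.

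Ctss: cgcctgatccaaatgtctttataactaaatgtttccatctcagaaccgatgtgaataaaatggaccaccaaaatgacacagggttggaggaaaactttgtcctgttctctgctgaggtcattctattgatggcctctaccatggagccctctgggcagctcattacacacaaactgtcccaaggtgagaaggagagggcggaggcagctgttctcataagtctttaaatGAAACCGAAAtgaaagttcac

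Ctsk: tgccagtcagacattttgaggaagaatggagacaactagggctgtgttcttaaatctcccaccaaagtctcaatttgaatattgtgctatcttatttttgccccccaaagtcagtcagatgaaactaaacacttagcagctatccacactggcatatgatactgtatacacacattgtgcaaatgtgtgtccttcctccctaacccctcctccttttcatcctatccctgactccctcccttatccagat

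The Ctss stretch is chr3:95526536-95526785 and the Ctsk stretch chr3:95498960-95499209, both from RefSeq on GRCm38.p6 and between genes. The Ctss match begins 21 bases before the start. The motif, searched on both strands, was in 1 of the 7 cathepsin genes with an entry, Ctss, and in 2.98% of all starts. A further motif, GAGGAAGT of the myeloid factor PU.1, was in 1 of the 7 genes, Ctsc, and in 2.44% of all starts. The motif TGANTCA of AP-1 was in 0 of the 7 and in 6.75% of all starts.

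The genes that deliver, inhibit and control the cathepsins were described from fixed lists. Of 18 genes of sorting and activation, 0 were higher and 17 lower under the PD-1 KO label over all conditions. Of all genes 30.3% were higher and 29.1% lower there. Scaled to the microglia markers, most of all called genes were higher, as given further below. Psap, the precursor of the saposins, averaged 60857 in libraries labelled PD-1 KO and 102866 in libraries labelled WT, a log2 difference of -0.75 ± 0.05. Lgmn, the asparaginyl protease that cleaves cathepsin precursors, stood at -0.53 ± 0.05, and Glb1 and Neu1, the enzymes shielded by cathepsin A, at -0.48 ± 0.04 and -0.42 ± 0.05. Scaled to the microglia markers, 3 of the 18 were higher and 4 lower, with a median of 0.05, and voom on recovered reads gave 1 higher and 9 lower. Under the marker scaling these 4 named genes remained past the threshold and lower, Psap at -0.46 and Neu1 at -0.13.

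The cystatins and serpins went both ways. Of the 18 listed 9 were tested, with 3 higher and 5 lower, or 4 higher and 1 lower when scaled to the microglia markers. With the values as deposited 30.3% of all genes were higher and 29.1% lower. Serpinh1, a collagen chaperone, was higher by 1.84 ± 0.11, Cst7, the microglial cystatin F, by 1.37 ± 0.09 and the low Serpinb1a by 0.91 ± 0.23. Serpinb9, an inhibitor of granzyme B, stood at -0.47 ± 0.06. Scaled to the microglia markers Serpinb9 stood at -0.18 and no longer passed, and with quantile normalization Serpinb1a reversed to -0.10.

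Among 9 tested proteases outside the 10 members 3 were higher and 4 lower, or 4 higher and 1 lower when scaled to the microglia markers. With the values as deposited 30.3% of all genes were higher and 29.1% lower, which also applies to the regulators below. Bace2, a β-secretase homologue, averaged 224 in libraries labelled PD-1 KO and 32.7 in libraries labelled WT and was higher by 2.88 ± 0.14, and Bace1, the β-secretase, was higher by 0.59 ± 0.08. The lysosomal dipeptidyl peptidase Dpp7 stood at -0.70 ± 0.06 and the tripeptidyl peptidase Tpp1 at -0.41 ± 0.04, which scaled to the microglia markers came to -0.41 and to -0.12, the second no longer past the threshold. Of 12 regulators of lysosomal genes 1 was higher and 8 lower; scaled to the microglia markers 5 were higher and 2 lower, and with voom on recovered reads 4 and 4. Tfeb, singled out here as the factor that reads the E-box, stood at -0.19 ± 0.05 but reversed to 0.10 when scaled to the microglia markers (adjusted p 0.12) and came to -0.05 with voom (adjusted p 0.30). Rragc, a GTPase of nutrient sensing, stood at -0.46 ± 0.03, Mcoln1, the lysosomal calcium channel, at -0.43 ± 0.04, and Ppargc1a was higher by 1.17 ± 0.15. Scaled to the microglia markers Rragc came to -0.17, Mcoln1 to -0.14 and Ppargc1a to 1.46, all still past the threshold. Under that scaling most of all called genes were higher, as given further below.

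**Figure D5:**
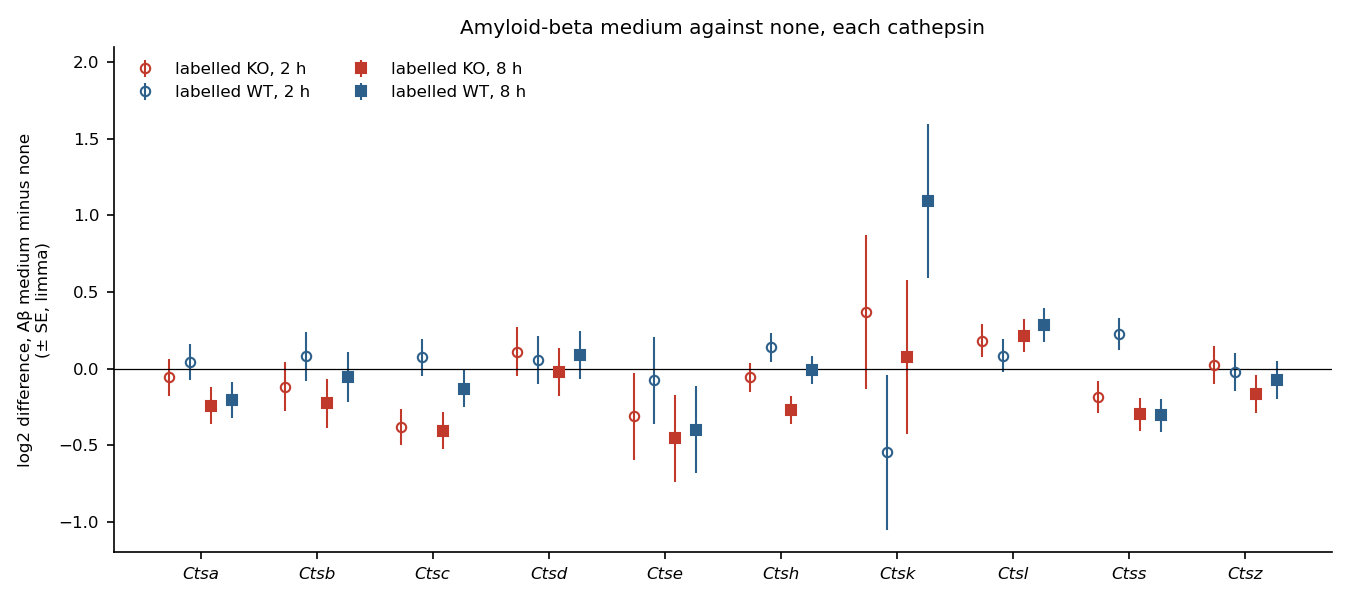
Log2 difference between cultures with and without amyloid-beta medium (y axis, ± SE, limma, n = 3 each) for the 10 cathepsins (x axis), by label and time. With the values as deposited and all libraries weighted equally no difference passed the threshold. The differences of Ctsl run from 0.08 to 0.28 and those of Ctse from -0.46 to -0.08.

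Cultures given amyloid-beta medium were compared with untreated ones. With the values as deposited and all libraries weighted equally, no cathepsin passed the threshold within a label and time. The sign of the difference varied between comparisons for all members but Ctse and Ctsl. In that limma fit the 4 comparisons called 0 of the 10. Of all genes it called 0% under the PD-1 KO label at 2 h, 0.0583% at 8 h, and 0% and 2.18% under the WT label at 2 h and 8 h. At an unadjusted p under 0.05 the members numbered 1 and 3 under the PD-1 KO label at 2 h and 8 h and 1 and 3 under the WT label. Of all genes 4.48% and 7.55% did so under the PD-1 KO label and 4.96% and 13.9% under the WT label. Voom on recovered reads called 1, Ctss, under the WT label at 8 h, and quantile normalization also called 1 there. With libraries weighted unequally (array weights) members passed in each of the 4 comparisons, as given further below. The lack of calls thus depended on the setting.

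Ctss had the smallest adjusted p of these comparisons. At 8 h under the WT label it was 13206, 13559 and 13294 with amyloid-beta, against 16518, 14990 and 18148 without, and these ranges did not overlap. The difference was -0.31 ± 0.11 with an adjusted p of 0.14. At 8 h under the PD-1 KO label Ctss was 8663, 8006 and 7906 with amyloid-beta, against 10645, 9118 and 10522 without, a difference of -0.30 ± 0.11 (adjusted p 0.41). At 2 h under the WT label the sign was the other way, at 0.23 ± 0.11, and at 2 h under the PD-1 KO label it was -0.19 ± 0.11. The 14 microglia and macrophage markers had median differences of -0.21 and -0.40 at 8 h under the WT and PD-1 KO labels. At 2 h their medians were 0.04 under the WT label and -0.20 under the PD-1 KO label. Their part in the Ctss differences was not tested.

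Ctsc under the PD-1 KO label was low with amyloid-beta at both times. At 2 h it was 1823, 1845 and 1969 with amyloid-beta, against 2715, 2210 and 2431 without, and at 8 h 1939, 1772 and 1771 with amyloid-beta, against 2711, 2242 and 2325 without. Neither pair overlapped, with differences of -0.38 ± 0.12 and -0.41 ± 0.12 and adjusted p-values of 0.79 and 0.24. The microglia and macrophage markers had median differences of -0.20 and -0.40 in these comparisons. Ctsl under the WT label at 8 h was 13410, 14379 and 13290 with amyloid-beta, against 10579, 10790 and 12415 without, a difference of 0.28 ± 0.11 (adjusted p 0.20). The largest difference in size, 1.09 ± 0.50, belonged to the near-floor Ctsk at 8 h under the WT label, which was 10.6, 8.82 and 3.71 with amyloid-beta, against 3.27, 1.15 and 5.01 without (adjusted p 0.32). Ctse at 8 h under the PD-1 KO label was 407, 380 and 440 with amyloid-beta, against 714, 519 and 474 without, and differed by -0.46 ± 0.28 (adjusted p 0.77). In that comparison the microglia and macrophage markers summed to 99025 ± 6817 with amyloid-beta and 130880 ± 14603 without (SD, n = 3 each). Scaled to them, 4 members passed, all higher: Ctsl at 0.64, Ctsd at 0.41, Ctsz at 0.26 and Ctsb at 0.20. Under that scaling 37.9% of all genes were higher and 0.168% lower, with a median of 0.45.

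Whether the response to amyloid-beta differed between the labels was tested by the interaction. With equal weights it called 0 members at 2 h, against 0.051% of all genes, and 0 at 8 h, against 0%. With array weights members passed at 2 h, as given further below. At an unadjusted p under 0.05 there were 2 and 0 members, against 4.83% and 5.9% of all genes. The 2 at 2 h were Ctsc at -0.45 ± 0.17 and Ctss at -0.41 ± 0.15, with adjusted p-values of 0.88 and 0.83. The microglia and macrophage markers had a median of -0.29 in that interaction.

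With the values as deposited and equal weights, Ctsh was the only one of the 10 members called with time in culture without amyloid-beta. Scaled to the microglia markers, or with array weights, other members passed under the WT label. Members also passed in the interaction of label and time at 2 h in these settings, as given further below. Ctsh under the WT label was 1685, 2092 and 2061 at 2 h, against 1422, 1435 and 1416 at 0 h, with no overlap, and rose by 0.44 ± 0.09 on the log2 scale (adjusted p 0.0043), where 4.75% of all genes passed. At 8 h it was 1835, 1762 and 1850, a rise of 0.35 ± 0.09 over the same 0 h libraries (adjusted p 0.021), where 6.05% of all genes passed. In the 2 h comparison 5 of the 14 microglia and macrophage markers rose and 0 fell, with a median of 0.33, and scaled to them Ctsh stood at -0.07 and did not pass. Fitted on only the groups compared, 0 members passed at 2 h; the 8 h call was lost on leaving out any 0 h library of the WT label or replicate 1 or 3 of the WT group at 8 h. Under the PD-1 KO label 0 members passed at 2 h, against 0.634% of all genes, and 0 at 8 h, against 3.29%; 0 and 2 members had an unadjusted p under 0.05, against 8.71% and 15.1% of all genes, and voom called 0. Ctsh there was 1452, 1400 and 1498 at 2 h, against 1365, 1431 and 1682 at 0 h. The difference between the labels in the 2 h change of Ctsh was -0.48 ± 0.13 with an adjusted p of 0.078, and 0 members passed in that interaction, against 0.736% of all genes, or in the one at 8 h, against 0.27%.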

How the data were processed

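RNA was extracted from the microglia and made into TruSeq libraries, per the labels' protocols. The deposited signal has 1 value per gene and library; the values show that the authors divided counts by a size factor of the library and set a floor of 1. Per the submitters' processing notes, DESeq2, R 3.0.2, Partek 6.6, HISAT 0.1.5 and the mm10 build were used, and the counting program is not given in the sources used here. The floor holds 1.08% of values and hides up to 4 reads in 12 libraries, so no count model was fitted. Intervals were not computed for single libraries, and read numbers cover counting error only.

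Values were tested as log2 of the value plus 1 for 13722 genes with at least 10 in at least 3 libraries. The model, run in limma 3.58.1 (R 4.3.3) with intensity trend, had a mean for each of the 10 groups and left 20 residual degrees of freedom from the 30 libraries. Benjamini-Hochberg adjustment ran over all tested genes in each of 18 comparisons, with a threshold of 0.05. Fold changes therefore understate the change of low genes such as Ctsk. The Ctse to Ctsd ratio was compared by permutation with scipy 1.17.1. The steps were tested on simulated data. Figures were drawn with matplotlib 3.10.9.

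The 10 members, the gene lists and the tests were chosen with earlier results of these data known. All members are named in every comparison where space allows; of each list up to 4 genes past the threshold with the largest differences are named, with Tfeb added after its values were seen. Positions and exon lengths came from a GRCm38 annotation, which placed 13262 genes (96.2%) by symbol. Promoter sequences came from RefSeq. No pair of libraries agreed within sampling noise, so each was counted once. The alternatives were other pseudocounts, filters, scalings, weights and fits, and leaving out each library.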

Additional observations from a re-analysis of the deposited data

How the results depend on the processing

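No paired analysis was possible because the labels give the groups no shared replicate numbers. The edgeR test on recovered reads was not run, since the floor hides reads; voom on recovered reads was added after seeing the data. Over all conditions 10 members passed in all 30 fits without 1 library, and Ctse ran from 4.83 to 4.99. The Ctse to Ctsd ratio ran from 5.37 to 5.51. Depth limits Ctsk most, and Ctse under the WT label.

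Counts of members past the threshold moved as follows. The cause was not tested. The share of all genes called in the same setting is not given beside each count, so the counts are not read as particular to the cathepsins. Scaled to the microglia markers, the genotype difference called 6 at 2 h (3 higher), 6 at 2 h with amyloid-beta (4 higher) and 5 at 8 h with amyloid-beta (1 higher), amyloid-beta under the PD-1 KO label at 8 h called 4, 2 h against 0 h under the WT label called 6, 8 h against 0 h called 3, all lower, and the genotype by time interaction at 2 h called 6. That scaling reversed Ctsh over all conditions (0.0199), at 2 h (0.0522), at 2 h with amyloid-beta (0.145) and in time under the WT label (-0.0697), Ctsc at 2 h (0.0144), and Ctsd (0.233, adjusted p 0.041) and Ctsz (0.106) at 2 h with amyloid-beta. With quantile normalization the genotype difference called 3 at 8 h and 5 at 8 h with amyloid-beta, and amyloid-beta under the WT label at 8 h called 1, as did voom. Fitted on only the groups compared, the genotype difference at 0 h called 2 and 2 h against 0 h under the WT label called 0. With array weights amyloid-beta called 1 at 2 h and 3 at 8 h under the PD-1 KO label and 1 at 2 h and 2 at 8 h under the WT label, its interaction at 2 h called 3, the genotype by time interaction at 2 h called 2, 2 h against 0 h under the WT label called 3 and 8 h against 0 h under the PD-1 KO label called 1.

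Without 1 library the genotype difference called 3 to 7 at 0 h, 9 to 10 at 2 h and at 2 h with amyloid-beta, 4 to 7 at 8 h and 7 to 8 at 8 h with amyloid-beta. The call of 8 h against 0 h under the WT label ran from 0 to 1, and the genotype by time interaction at 2 h from 0 to 2, reaching 2 without replicate 1 of the PD-1 KO group at 0 h. Of all called genes, 51.0% were higher under the PD-1 KO label as deposited, 34.2% with quantile normalization, 93.2% scaled to the microglia markers and 77.1% with voom, and the median of all genes stood at -0.02, -0.11, 0.27 and 0.11 in that order.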

Other observations

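Class II genes, whose peptides the cathepsins prepare, stood apart in a single library. Of 8 listed genes of class II processing 7 were tested, with 5 higher and 2 lower under the PD-1 KO label over all conditions. Of all genes 30.3% were higher and 29.1% lower. With quantile normalization 3 of the 7 were higher and 2 lower. Cd74, the invariant chain that cathepsin S trims, ranged from 148 through a median of 238 to 386 in libraries labelled PD-1 KO, against 16.5, 65.0 and 828 in libraries labelled WT. The value of 828 belongs to replicate 1 of the WT group at 2 h, and the next highest library labelled WT had 101.1. The same library had 283 for H2-Aa and 326 for H2-Ab1, where the next highest library labelled WT had 8.35 and 21.2. Their medians were 12.05 and 21.05 under the PD-1 KO label, against 1 and 2.94 under the WT label. Ctss in that library was 13629, within the range of the other libraries labelled WT.

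Under the PD-1 KO label 7 of the 11 markers of the oligodendrocyte lineage were higher and 3 were lower, of 8 tested neuronal markers 3 were higher and 5 lower, and of 9 tested fibroblast and vascular markers 6 were higher and 1 lower. Scaled to the microglia markers these counts came to 8 and 1, 3 and 4, and 8 and 0. Of all genes, with the values as deposited, 30.3% were higher and 29.1% lower over all conditions.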
